A study of Mus musculus with 18 samples.

Results

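The genes described here are the protein kinase complex mTORC1 and the genes that hold it back or act below it. They are 9 genes chosen by name, among 17208 genes with reads in at least 1 library. Ddit4 and Sesn2 encode stress-induced inhibitors of the complex, Tsc1 and Tsc2 the inhibitory TSC complex, Mtor and Rptor the kinase and its substrate-binding partner, and Eif4ebp1, Eif4ebp2 and Rps6kb1 its substrates. All libraries came from MIN6 cells, a mouse insulinoma line that makes and secretes insulin. Control cells received DMSO for 18 h, CPA1 cells 200 µM cyclopiazonic acid (CPA) for 1 h and CPA18 cells 200 µM CPA for 18 h. CPA blocks the pump that fills the endoplasmic reticulum (ER) with calcium and so causes ER stress. A DMSO control of 1 h was not analysed here, and MIN6 is a tumor line, so these values describe cultured cells and not islets. In each of 3 independent experiments, every treatment gave an mRNA-seq library of poly(A) RNA and a Ribo-seq library of ribosome-protected fragments, 18 libraries in all. The comparisons ask how mRNA levels, ribosome footprints and ribosome occupancy (footprints per mRNA) of these genes differed between unstressed, acutely stressed and chronically stressed cells.

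As background, mTORC1 is switched on at the lysosome by amino acids, through the Rag GTPases, and by insulin, through AKT and the small GTPase Rheb. When active it phosphorylates 4E-BP proteins, which then let go of the cap-binding factor eIF4E, and S6 kinase, and so raises protein synthesis. ER stress is known to restrain it through the transcription factors ATF4 and CHOP, whose targets include the mTORC1 inhibitors DDIT4 (also called REDD1) and sestrin 2 and the translation inhibitor 4E-BP1. In beta cells, mTORC1 is known for its part in cell growth and insulin production.

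Library totals ran from 520960 to 4755030 counted reads in mRNA-seq and from 168129 to 1083297 in Ribo-seq. Of the 9 genes, 7 had reads in all 18 libraries and were tested among 7794 such genes, by edgeR's quasi-likelihood test with the experiment as a block and Benjamini-Hochberg adjustment. All 10 beta cell markers examined had reads in both assays at each treatment. Their summed level, insulin included, was 158278 to 464281 RPKM in control and 44140 to 135507 RPKM in CPA18 mRNA-seq libraries. The part of this difference in the results was examined only through 1 of the scalings named below, which leaves out the insulin genes. The summed level of 6 acinar and ductal, 4 fibroblast and 4 leukocyte markers was at most 2.46, 1.38 and 4.29 RPKM in any library, and Prss2, Cpb1, Col3a1, Ptprc, Lyz2 and Cd3e had no read. That of 6 markers of alpha, delta, PP and epsilon cells was 23.8 to 137 RPKM in mRNA-seq and 108 to 241 RPKM in Ribo-seq, and its part in the results was not tested. Of 9 tested genes listed for ATF4, CHOP and their targets, 4 rose in mRNA-seq and 5 in Ribo-seq at CPA1 against control. Over all tested genes 0.449% and 3.72% rose. At CPA18 against control 7 and 8 of them rose, against 25.9% and 24.6% of all tested genes. This list includes Atf4 and Ddit3, which encode ATF4 and CHOP themselves. With the library total as scale the median gene shifted by 0.36 (log2) in mRNA-seq and 0.39 in Ribo-seq at CPA18 against control. For this reason each call was repeated with 4 other scalings, and changes are also given relative to that median. In control experiment 2 the labels of the 2 libraries disagree on the assay, and they were placed by their titles. The headings of the deposited count columns match these titles. In these bulk libraries a change within cells cannot be told apart from a change in the share of cells that express a gene.

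At CPA18, 3 of the 7 tested genes rose in both assays and stayed called under all 4 other scalings and without experiment 2: Ddit4, Sesn2 and Eif4ebp1, by 5.22- to 7.97-fold in mRNA-seq and 5.11- to 12.2-fold in Ribo-seq against control. For Tsc1, Tsc2, Mtor and Rptor the fitted changes lay between 0.623- and 1.93-fold over the 3 comparisons and both assays, and their 3 calls were lost under all 4 other scalings. At CPA1, of the 7 genes, Ddit4 was called in Ribo-seq and no gene in mRNA-seq. No member was called in ribosome occupancy in any of the 3 comparisons. The comparisons share libraries, so they are not independent of each other. In mRNA-seq, 4 of 7 members were higher at CPA18 than in control (background 25.9% of tested genes) and none lower (background 7.69%). In Ribo-seq, 3 were higher (background 24.6%) and none lower (background 6.35%). Relative to CPA1, 4 were higher in mRNA-seq (background 31.9%) and 4 in Ribo-seq (background 17%), with none lower (backgrounds 5.54% and 5.52%). For CPA1 against control the counts were 0 higher and 0 lower in mRNA-seq (backgrounds 0.449% and 0.269%) and 1 higher and 0 lower in Ribo-seq (backgrounds 3.72% and 2.78%). In mRNA-seq at CPA1, 486 of the 7794 genes had an unadjusted p under 0.05, and DESeq2 called 35 genes, with 0 of the 7 members among them. With TMM scaling the share of called genes that were higher at CPA18 than in control fell from 77.1% to 42.7% in mRNA-seq and from 79.5% to 48.3% in Ribo-seq.

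**Figure D1:**
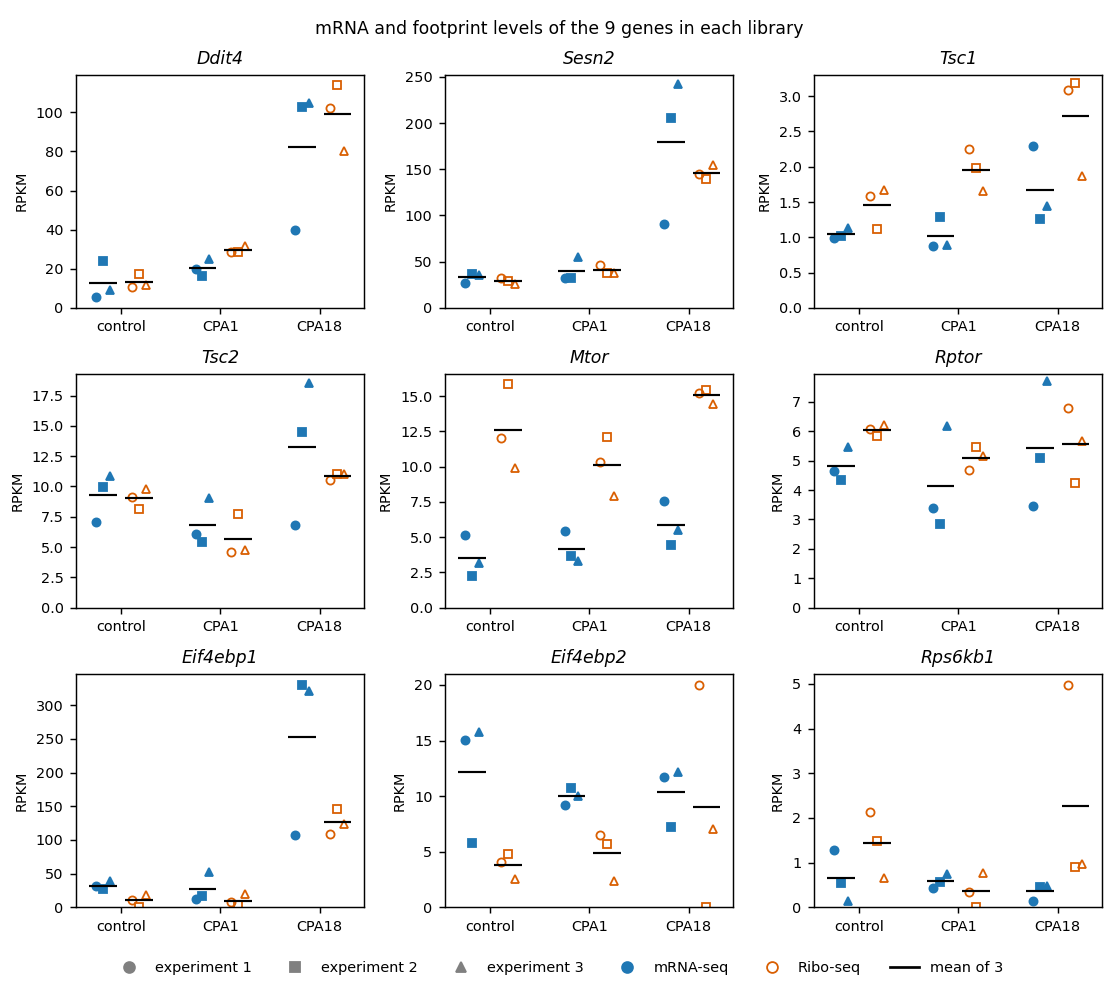
Levels of the 9 genes in RPKM (reads scaled to transcript length in kilobases and to the total of counted reads) by treatment, one panel per gene, with filled blue symbols for mRNA-seq, open orange symbols for Ribo-seq, a symbol shape for each experiment and a black line at the mean of 3 libraries. For Ddit4, Sesn2 and Eif4ebp1 all CPA18 libraries lie above all control and CPA1 libraries of the same assay, and in experiment 1 the mRNA-seq value at CPA18 is the lowest of the 3.

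Ddit4 encodes a short-lived protein that is known to release the TSC complex from its inhibition by AKT. The gene spans 2096 bases of chromosome 10 (59949675 to 59951770, GRCm38.p6) and was counted on 1 transcript. Its mRNA stood at 5.70, 23.8 and 9.37 RPKM in control experiments 1, 2 and 3, at 19.9, 16.5 and 25.1 RPKM in CPA1 and at 39.7, 103 and 105 RPKM in CPA18. The control value of experiment 2 was the high one and lay inside the CPA1 range, whereas all CPA18 values were above those of the other treatments. Ddit4 footprints gave 10.8, 17.2 and 11.5 RPKM in control, 28.6, 28.7 and 31.5 RPKM in CPA1 and 102, 114 and 80.4 RPKM in CPA18. In footprints the 3 treatments did not overlap, and CPA1 lay above control in each experiment.

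The footprint increase of Ddit4 at 1 h was 2.26-fold (log2 1.18, SE 0.32, edgeR adjusted p = 0.00699), 1.11 above the median gene on the log2 scale, where it ranked 197 of 7794. It rested on 15 to 27 reads in control and 19 to 25 reads in CPA1 libraries. The call was lost without control Ribo-seq experiment 1 (edgeR adjusted p = 0.0746), without CPA1 Ribo-seq experiment 3 (0.102), without experiment 1 or experiment 3 as a whole (0.102 and 0.113) and by limma (0.203 and 0.181 with pseudocounts of 0.5 and 1). Ddit4 mRNA at 1 h had a log2 change of 0.78 (SE 0.35, edgeR adjusted p = 0.621), with ratios of 3.49, 0.692 and 2.68 in experiments 1, 2 and 3. The lower value belonged to experiment 2, the one whose control labels disagree. Without experiment 2 the mRNA change was 1.65 (edgeR adjusted p = 0.0166), and without only its control mRNA-seq library 1.46 (adjusted p = 0.386).

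At 18 h Ddit4 rose 6.28-fold over control in mRNA-seq (log2 2.65, SE 0.33, edgeR adjusted p = 1.36e-10) and 7.31-fold in Ribo-seq (log2 2.87, SE 0.29, adjusted p = 4.16e-19). Relative to the 1 h libraries it rose 3.65-fold (log2 1.87, SE 0.31, edgeR adjusted p = 6.56e-07) and 3.23-fold (log2 1.69, SE 0.29, adjusted p = 1.83e-07). The 18 h increase over control was present in all 3 experiments, from 4.31- to 11.2-fold in mRNA-seq and from 6.61- to 9.45-fold in Ribo-seq. Without the control mRNA-seq library of experiment 2 the mRNA value was 3.38 on the log2 scale. Without the experiment as a block, the mRNA difference from CPA1 was no longer called (adjusted p = 0.0609).

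Sesn2 encodes sestrin 2, a leucine sensor that is known to hold back mTORC1 through the GATOR2 complex when leucine is scarce. It lies on chromosome 4 (132492804 to 132510456, GRCm38.p6). Sesn2 mRNA gave 26.5, 36.8 and 35.8 RPKM in control, 32.3, 32.8 and 55.1 RPKM in CPA1 and 91.1, 206 and 242 RPKM in CPA18. Control and CPA1 overlapped, and CPA18 stood above both, with experiment 1 the lowest of its group. In Ribo-seq the values were 31.8, 28.9 and 26.2 RPKM in control, 46.8, 38.1 and 38.1 RPKM in CPA1 and 145, 139.8 and 155 RPKM in CPA18. Here the 3 treatments did not overlap, and the CPA18 libraries lay within a narrow range.

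Sesn2 rose 5.22-fold in mRNA-seq (log2 2.38, SE 0.27, edgeR adjusted p = 1.28e-12) and 5.11-fold in Ribo-seq (log2 2.35, SE 0.21, adjusted p = 3.54e-24) at CPA18 against control. Against CPA1 the increases were 4.29-fold (log2 2.10, SE 0.26, edgeR adjusted p = 5.03e-11) and 3.61-fold (log2 1.85, SE 0.22, adjusted p = 7.05e-15). At CPA1 the footprint change was 0.50 on the log2 scale (edgeR adjusted p = 0.185), and the ratios to control in the 3 experiments were 1.47, 1.32 and 1.45. The 1 h footprint difference did not pass the test although its direction was shared by the 3 experiments. Its mRNA had a log2 change of 0.28 at that time (edgeR adjusted p = 0.990).

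Both stress-induced brakes have CCAAT boxes, a common element bound by the factor NF-Y, in the 250 bases before their RefSeq start (GRCm38.p6). They are shown because these genes moved together, next to that of Mtor, whose single call was lost under other scalings. Capitals mark CCAAT or, for a match on the other strand, ATTGG. This motif was chosen after the values were seen. It was also chosen after the planned motifs, named below, gave no match in Ddit4 and Sesn2. A link between the motif and the changes was not tested.
Ddit4, chr10:59951771-59952020, minus strand: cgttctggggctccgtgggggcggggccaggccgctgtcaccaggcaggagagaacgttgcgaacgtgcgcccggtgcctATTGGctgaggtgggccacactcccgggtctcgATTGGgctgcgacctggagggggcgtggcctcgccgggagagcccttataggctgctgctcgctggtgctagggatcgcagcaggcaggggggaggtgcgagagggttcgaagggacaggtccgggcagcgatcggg
Sesn2, chr4:132510457-132510706, minus strand: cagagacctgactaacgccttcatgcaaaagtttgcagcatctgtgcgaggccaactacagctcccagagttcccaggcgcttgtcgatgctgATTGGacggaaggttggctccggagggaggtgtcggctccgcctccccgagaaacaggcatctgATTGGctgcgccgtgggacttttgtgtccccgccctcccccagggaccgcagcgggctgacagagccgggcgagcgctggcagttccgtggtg
Mtor, chr4:148448332-148448581, plus strand: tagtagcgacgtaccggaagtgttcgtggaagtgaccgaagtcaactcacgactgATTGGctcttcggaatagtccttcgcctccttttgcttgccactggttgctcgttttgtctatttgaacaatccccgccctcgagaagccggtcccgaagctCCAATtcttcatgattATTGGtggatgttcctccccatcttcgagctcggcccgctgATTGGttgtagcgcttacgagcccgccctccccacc
The Ddit4 and Sesn2 windows hold 2 matches each and that of Mtor 4, whereas those of Eif4ebp2, Tsc1, Tsc2, Rptor and Rps6kb1 hold 0. Over 32851 promoters of this length in the RefSeq table, 33.8% hold at least 1 match, so the motif is common. Eif4ebp1 was not matched in the table. Other motifs were searched on both strands, from 250 bases before the start to 50 after it. The C/EBP-ATF response element TGATGNAA, which ATF4 binds, was in 3.97% of the promoters of 27025 genes, the ER stress response element in 0.119%, the E-box CACGTG in 7.15% and TGACGT, part of a cAMP response element, in 7.51%. Of these, the ER stress response element contains CCAAT. Among the 8 matched members, the Eif4ebp2 promoter held TGACGT and no other of these motifs was found. A missing match says only that these letters are not in this window.

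Sesn3, a sestrin known to be a FOXO target, gave 48.5, 42.9 and 47.1 RPKM in control and 30.3, 11.4 and 17.6 RPKM in CPA18 Ribo-seq libraries. All 3 CPA18 values lay below the control values. The Sesn3 log2 change was -1.25 in Ribo-seq (SE 0.31, edgeR adjusted p = 0.000540) and -1.03 in mRNA-seq (SE 0.33, adjusted p = 0.0100), and both calls held under the 4 other scalings. Sesn1 and Ddit4l are given to complete the families and were chosen after their values were seen. Sesn1 had log2 changes of -0.16 in mRNA-seq (edgeR adjusted p = 0.845) and -0.06 in Ribo-seq (adjusted p = 0.957) at CPA18. Ddit4l, the paralog of Ddit4, had 32 mRNA-seq and 4 Ribo-seq reads over all libraries and was not tested. No test compared the sestrins with each other.

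Eif4ebp1 encodes 4E-BP1, which binds the cap-binding factor eIF4E and blocks cap-dependent initiation until mTORC1 phosphorylates it. It lies on chromosome 8 (27260327 to 27275656, GRCm38.p6). Its mRNA gave 31.3, 26.7 and 38.5 RPKM in control, 11.8, 16.2 and 52.2 RPKM in CPA1 and 108, 330.1 and 321 RPKM in CPA18. The CPA1 values spread around the control range, and every CPA18 value was above it. Footprints gave 11.2, 1.10 and 17.9 RPKM in control, 7.86, 2.60 and 19.5 RPKM in CPA1 and 109, 146 and 123.3 RPKM in CPA18. The control and CPA1 libraries of experiment 2 held 1 read each, and the CPA18 footprint values were far above both groups.

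**Figure D2:**
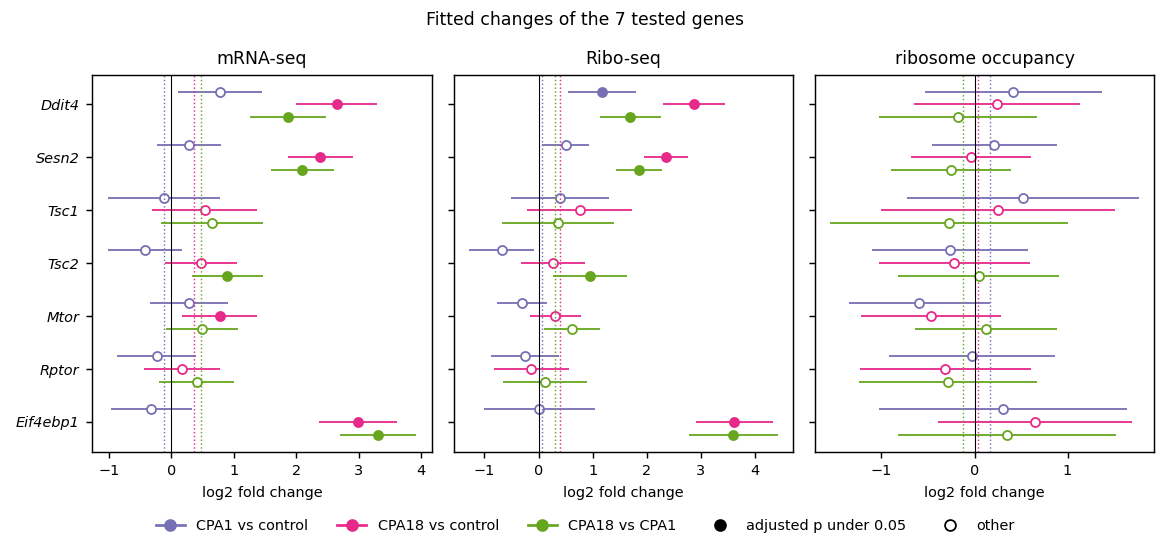
Log2 changes of the 7 tested genes in mRNA-seq, Ribo-seq and ribosome occupancy for the 3 comparisons, with bars for the 95% interval, filled symbols where the adjusted p was under 0.05 and dotted lines at the median of the 7794 tested genes. Ddit4, Sesn2 and Eif4ebp1 lie at 2.35 or higher against control at 18 h in both assays, and no occupancy symbol is filled.

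At 18 h Eif4ebp1 rose 7.97-fold over control in mRNA-seq (log2 2.99, SE 0.32, edgeR adjusted p = 2.08e-13), rank 28 of 7794, and 12.2-fold in Ribo-seq (log2 3.61, SE 0.36, adjusted p = 1.69e-19), rank 16. Against CPA1 it rose 9.93-fold (log2 3.31, SE 0.31, edgeR adjusted p = 3.37e-16) and 12.1-fold (log2 3.60, SE 0.42, adjusted p = 4.07e-15). The footprint value against control was 2.95 on the log2 scale without experiment 2, 2.98 without only the CPA18 library of experiment 2 and 3.07 without its control, while it was 4.43 without experiment 3, 4.26 without only the control library of experiment 3 and 4.50 without its CPA18 library. Against CPA1 it was 3.01 without the CPA18 library of experiment 2, 4.53 without experiment 3, 4.29 without the CPA1 library of experiment 3 and 4.47 without its CPA18 library. The call held in each of these cases. At 1 h the log2 changes of Eif4ebp1 were -0.32 in mRNA-seq (edgeR adjusted p = 0.990) and 0.02 in Ribo-seq (adjusted p = 0.995).

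Eif4ebp2 encodes 4E-BP2, a relative with the same way of acting, and lies on chromosome 10 (61428491 to 61452790). Its mRNA gave 15.0, 5.79 and 15.8 RPKM in control, 9.22, 10.7 and 10.1 RPKM in CPA1 and 11.7, 7.18 and 12.1 RPKM in CPA18, with the 3 treatments overlapping. It had 44 Ribo-seq reads over all libraries and 0 in CPA18 experiment 2, where 3 reads, the upper limit that a count of 0 allows, would be 14.8 RPM. In a fit without the filter on low counts its log2 changes at 18 h were -0.18 in mRNA-seq (SE 0.37, edgeR adjusted p = 0.846) and 1.17 in Ribo-seq (SE 0.63, adjusted p = 0.247). The ratio of Eif4ebp1 to Eif4ebp2 mRNA in RPKM was 2.08, 4.61 and 2.44 in control, 1.28, 1.51 and 5.19 in CPA1 and 9.17, 46.0 and 26.5 in CPA18. The CPA18 ratios were above those of control in all 3 experiments. An exact permutation test that did not pair the experiments gave a two-sided p = 0.1, the smallest that 3 against 3 allows. Between CPA1 and control the same exact test gave p = 0.6.

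Tsc2, the part of the TSC complex that turns off Rheb, lies on chromosome 17 (24595816 to 24632676). Its mRNA gave 7.09, 9.98 and 10.9 RPKM in control, 6.06, 5.41 and 9.06 RPKM in CPA1 and 6.82, 14.5 and 18.6 RPKM in CPA18, with overlap among all treatments. Tsc2 footprints gave 9.16, 8.11 and 9.78 RPKM in control, 4.60, 7.72 and 4.77 RPKM in CPA1 and 10.5, 11.1 and 11.02 RPKM in CPA18. CPA1 was the low group in footprints and did not overlap the others. Its 18 h change against CPA1 was 0.90 (log2) in mRNA-seq (SE 0.29, edgeR adjusted p = 0.0107) and 0.95 in Ribo-seq (SE 0.35, adjusted p = 0.0350), 1.87- and 1.93-fold. Against control the log2 changes were 0.47 (edgeR adjusted p = 0.207) and 0.26 (adjusted p = 0.547), and at 1 h that of footprints was -0.68 (adjusted p = 0.196).

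The Tsc2 calls depended on the library and the scale. Against CPA1, the mRNA-seq call was lost without experiment 2 (edgeR adjusted p = 0.118) or experiment 3 (0.148), and without the CPA1 library of experiment 2 (0.0821) or the CPA18 library of experiment 2 (0.0952) or 3 (0.129). The Ribo-seq call was lost without experiment 1 (edgeR adjusted p = 0.171) or 3 (0.222), without the CPA1 library of experiment 1 (0.153) or 3 (0.186), and without the CPA18 library of experiment 1 (0.0774), 2 (0.0780) or 3 (0.145). Without the experiment as a block, the adjusted p became 0.254 for mRNA-seq and 0.0512 for Ribo-seq, and with TMM scaling 0.163 and 0.197. With 1 transcript per gene the change in mRNA-seq against control was 1.17 (adjusted p = 0.0275). Tsc2 shares 699 bases with Pkd1, which had 143 reads over the 18 libraries.

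Tsc1, which stabilizes TSC2 and lies on chromosome 2 (28640993 to 28691172), was thinly covered, with 4 to 46 reads in each library. Its mRNA ranged from 0.997 to 1.13 RPKM in control, from 0.870 to 1.29 RPKM in CPA1 and from 1.25 to 2.30 RPKM in CPA18. Its footprints ranged from 1.12 to 1.68 RPKM in control, from 1.65 to 2.25 RPKM in CPA1 and from 1.87 to 3.19 RPKM in CPA18. All CPA18 values lay above all control values in both assays, while CPA1 and CPA18 overlapped, and the log2 changes against control were 0.53 in mRNA-seq (edgeR adjusted p = 0.349) and 0.76 in Ribo-seq (adjusted p = 0.250). No difference of Tsc1 passed the test at this depth.

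Mtor, the kinase itself, lies on chromosome 4 (148448582 to 148557685). Its mRNA gave 5.13, 2.26 and 3.18 RPKM in control, 5.45, 3.68 and 3.31 RPKM in CPA1 and 7.57, 4.44 and 5.49 RPKM in CPA18. Each experiment had its highest value at CPA18, but the groups overlapped because experiment 1 was high throughout. Mtor footprints gave 12.02, 15.9 and 9.86 RPKM in control, 10.3, 12.1 and 7.90 RPKM in CPA1 and 15.2, 15.4 and 14.5 RPKM in CPA18. CPA1 was below control in each experiment, and all CPA18 values lay inside the control range. The mRNA change at 18 h against control was 1.71-fold (log2 0.77, SE 0.31, edgeR adjusted p = 0.0418), 0.41 above the median gene. It was not called with the 4 other scalings (log2 0.36 to 0.54), without the block (adjusted p = 0.367) or by limma.

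Of the libraries left out 1 at a time, the Mtor call was lost without CPA1 experiment 1 (edgeR adjusted p = 0.0602), control experiment 2 (0.252) or 3 (0.121) or CPA18 experiment 2 (0.125) or 3 (0.189), and without any 1 experiment it was 0.0507, 0.158 and 0.232. In Ribo-seq the Mtor log2 changes were -0.31 at 1 h (edgeR adjusted p = 0.530), 0.31 at 18 h against control (adjusted p = 0.348) and 0.62 against CPA1 (adjusted p = 0.0724). The range of Mtor against control at 18 h over the 23 alternatives in Ribo-seq was -0.10 to 0.47. Rptor, the subunit that recruits substrates, lies on chromosome 11 (119602905 to 119899591) and had 2.83 to 7.70 RPKM in mRNA-seq and 4.22 to 6.80 RPKM in Ribo-seq. Its treatments overlapped in mRNA-seq, and its log2 changes against control at 18 h were 0.17 (edgeR adjusted p = 0.700) and -0.13 (adjusted p = 0.816). Relative to the median gene these values were -0.19 and -0.52. In Ribo-seq its CPA1 values, 4.68 to 5.47 RPKM, lay below the control values of 5.83 to 6.20 RPKM, with ratios of 0.769, 0.937 and 0.833 in the 3 experiments (log2 change -0.25, edgeR adjusted p = 0.756).

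Rps6kb1 encodes S6 kinase 1, the mTORC1 substrate that phosphorylates ribosomal protein S6, and lies on chromosome 11 (86498869 to 86544885). It was the least covered of the 9 genes, with 0 to 12 reads in each library and 0 in CPA1 Ribo-seq experiment 2, where 3 reads would be 7.64 RPM. The level was 0.145 to 1.27 RPKM in mRNA-seq and 0 to 4.97 RPKM in Ribo-seq, and the treatments overlapped in mRNA-seq. In a fit without the filter on low counts its log2 changes at 18 h were -0.28 in mRNA-seq (SE 0.86, edgeR adjusted p = 0.905) and 0.59 in Ribo-seq (SE 0.80, adjusted p = 0.779). No difference was detectable at this depth.

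**Figure D3:**
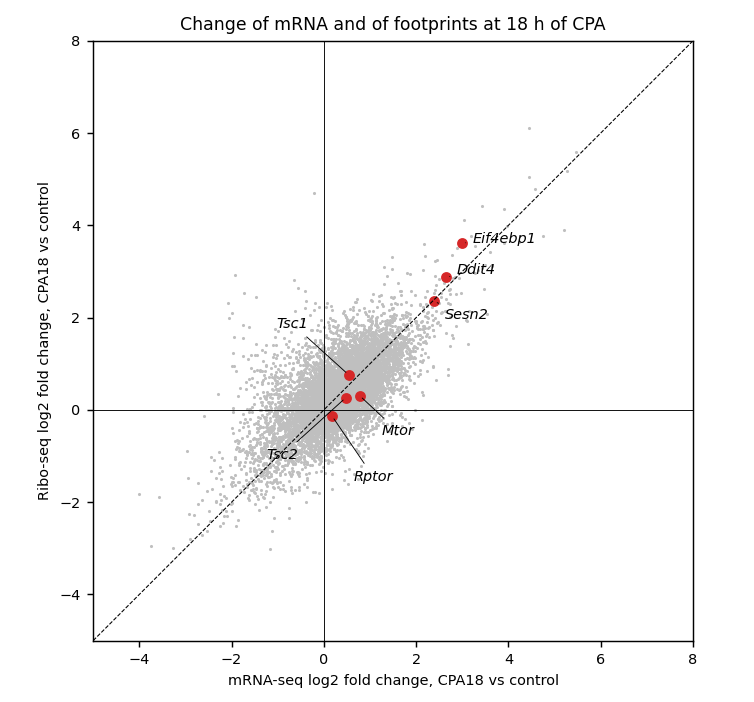
Log2 change in Ribo-seq against log2 change in mRNA-seq for the tested genes, with the 7 members named and a dashed line where both are equal. At 18 h Ddit4, Sesn2 and Eif4ebp1 lie near the line, at 2.65, 2.38 and 2.99 in mRNA-seq and 2.87, 2.35 and 3.61 in Ribo-seq.

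Ribosome occupancy, here the log2 ratio of footprint to mRNA RPKM, asks whether footprints moved more than the mRNA did. It divides by the full transcript length, and reads were counted over whole transcripts. For Mtor it was 1.23, 2.81 and 1.63 in control, 0.92, 1.72 and 1.25 in CPA1 and 1.01, 1.80 and 1.40 in CPA18. The mean Mtor ratio in control was 1.89 ± 0.82 (SD, n = 3). Within each experiment the Mtor ratio was lower at CPA1 and at CPA18 than in control, although the ranges of the treatments overlapped. The control value of experiment 2 comes from the libraries whose labels disagree on the assay. They were placed by titles that match the headings of the deposited counts. If they were exchanged this value would be -2.81 for Mtor and 4.60 for Eif4ebp1, and experiment 2 would then run the other way for Mtor. In control experiments 1 and 3 the ratios were 1.23 and 1.63 for Mtor and -1.49 and -1.11 for Eif4ebp1. An exchange was not tested. For Ddit4 the ratios were 0.93, -0.47 and 0.30 in control, 0.52, 0.80 and 0.33 in CPA1 and 1.37, 0.15 and -0.39 in CPA18. For Sesn2 they were 0.26, -0.35 and -0.45 in control, 0.53, 0.21 and -0.53 in CPA1 and 0.67, -0.56 and -0.64 in CPA18. The treatments overlapped for both brakes. For Eif4ebp1 they were -1.49, -4.60 and -1.11 in control, -0.59, -2.64 and -1.42 in CPA1 and 0.02, -1.18 and -1.38 in CPA18, and the lowest ratios stood on libraries with 1 read.

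None of the 7 members was called in occupancy: 0 at CPA1 against control (background 0.0898% of tested genes, in either direction), 0 at CPA18 against CPA1 (background 0.077%) and 0 at CPA18 against control (background 0.462%). The numbers of all 7794 genes with an unadjusted p under 0.05 were 549, 443 and 702, none of the members was among those called by DESeq2, and the lowest adjusted p of a member was 0.754 (edgeR, Eif4ebp1 at 18 h). The change of Eif4ebp1 at 18 h against control was 0.65 on the log2 scale, with a 95% interval of -0.39 to 1.69. For Ddit4 it was 0.24 (95% interval -0.65 to 1.13), for Sesn2 -0.04 (-0.69 to 0.61) and for Mtor -0.47 (-1.22 to 0.28). At 1 h Ddit4 had 0.42 (-0.53 to 1.37) and Mtor -0.59 (-1.35 to 0.16). The interval of Ddit4 at 1 h includes 1.18, its footprint change at that time.

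**Figure D4:**
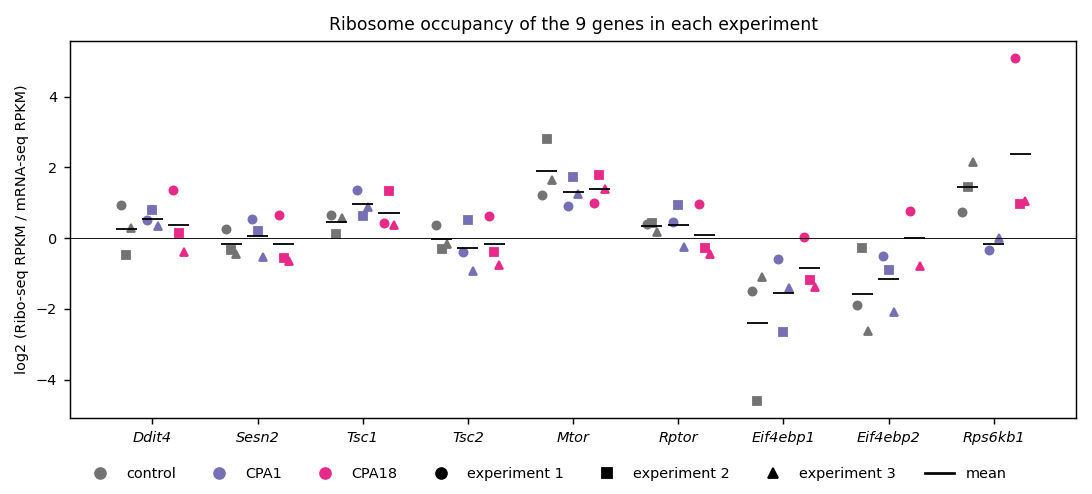
Ribosome occupancy of the 9 genes, as the log2 ratio of Ribo-seq to mRNA-seq RPKM, by treatment, with a symbol for each experiment and a line at the mean. Ratios of Mtor are above 0 at each treatment in each experiment, and the lowest point is Eif4ebp1 in control experiment 2, at -4.60, where 1 footprint read was counted and the labels disagree on the assay.

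Among the 81 other listed genes of the mTORC1 network, 59 were tested. At CPA18 against control 16 rose and 7 fell in mRNA-seq and 15 rose and 4 fell in Ribo-seq, beside the backgrounds of 25.9% and 7.69% and of 24.6% and 6.35%. Their median log2 change was 0.28 in mRNA-seq against 0.36 for all tested genes and 0.45 against 0.39 in Ribo-seq. With the other scalings the counts were 11 to 16 up and 10 to 12 down in mRNA-seq and 4 to 10 up and 5 to 6 down in Ribo-seq. Over all 7794 tested genes the same scalings gave 838 to 1619 up and 986 to 1404 down in mRNA-seq. In Ribo-seq they gave 505 to 1317 up and 613 to 1016 down. At CPA1 the counts were 1 up and 0 down in mRNA-seq and 3 up and 1 down in Ribo-seq, and 0 in occupancy in any comparison.

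On the inhibitory side, Trib3, a pseudokinase known to bind AKT, rose at both times. Its mRNA gave 13.1, 11.3 and 11.3 RPKM in control and 200.2, 539.6 and 595.7 RPKM in CPA18, so that the groups stood far apart. Trib3 rose by 5.28 on the log2 scale in mRNA-seq and by 5.18 in Ribo-seq at 18 h (edgeR adjusted p = 1.23e-27 and 2.30e-73), and by 1.62 and 2.08 at 1 h (adjusted p = 0.000537 and 2.01e-11). Akt1s1, which encodes the inhibitory mTORC1 subunit PRAS40, rose by 1.06 (adjusted p = 0.00540) and 1.52 (adjusted p = 0.00215) at 18 h against control. Deptor, an inhibitory subunit, rose by 0.97 in Ribo-seq (adjusted p = 0.0113), while its mRNA had a log2 change of -0.51 (adjusted p = 0.251). With the other 4 scalings Akt1s1 was called in 1 in mRNA-seq and 3 in Ribo-seq and Deptor in 1. Castor2, a relative of the arginine sensor, fell by 2.02 on the log2 scale in mRNA-seq and by 1.46 in Ribo-seq (edgeR adjusted p = 3.51e-09 and 6.40e-05).

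On the activating side, Rheb, the GTPase that switches mTORC1 on, gave 20.2, 27.2 and 22.9 RPKM in control and 55.1, 60.0 and 58.1 RPKM in CPA18 mRNA-seq libraries. The 2 groups did not overlap, with a log2 change of 1.28 (SE 0.30, edgeR adjusted p = 0.000476) in mRNA-seq and 0.88 (SE 0.25, adjusted p = 0.00326) in Ribo-seq. The mRNA-seq call of Rheb held under 4 of 4 other scalings and the Ribo-seq call under 1. Lamtor2 and Lamtor3, parts of the Ragulator scaffold on the lysosome, rose by 1.04 and 1.37 in mRNA-seq (edgeR adjusted p = 0.00501 and 0.000328) and by 1.35 and 1.24 in Ribo-seq (adjusted p = 2.15e-05 and 0.00571). Under the 4 other scalings Lamtor2 was called in 3 for mRNA and 4 for footprints, and Lamtor3 in 4 and 1. Of the 8 tested Rag and Ragulator genes 3 rose in mRNA-seq and 2 in Ribo-seq (backgrounds 25.9% and 24.6%), and none fell (backgrounds 7.69% and 6.35%). With the other scalings 1 to 3 rose and 1 to 2 fell in mRNA-seq, where 838 to 1619 of all 7794 tested genes rose and 986 to 1404 fell. The insulin receptor substrate Irs1 fell by 1.51 in mRNA-seq and by 1.30 in Ribo-seq at 18 h (edgeR adjusted p = 0.000200 and 0.00157).

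Irs2, the other main insulin receptor substrate of beta cells, rose at 1 h in Ribo-seq. Its footprints gave 19.2, 19.5 and 32.9 RPKM in control, 55.9, 67.5 and 50.7 RPKM in CPA1 and 11.4, 21.02 and 21.3 RPKM in CPA18, and CPA1 stood above both other groups. The log2 change of Irs2 footprints was 1.31 at 1 h (SE 0.19, edgeR adjusted p = 1.47e-09) and -1.69 from 1 h to 18 h (adjusted p = 2.78e-12). Irs2 mRNA gave 15.0, 6.71 and 10.3 RPKM in control, 29.5, 21.6 and 10.7 RPKM in CPA1 and 8.06, 5.08 and 4.50 RPKM in CPA18. The mRNA difference at 1 h was not called, and the log2 change from 1 h to 18 h was -1.77 (edgeR adjusted p = 3.69e-07). Of the 12 tested genes of insulin and PI3K-AKT input, 2 rose and 4 fell in mRNA-seq at 18 h against control and 1 rose and 1 fell in Ribo-seq. Over all tested genes 25.9% rose and 7.69% fell in mRNA-seq, and 24.6% rose and 6.35% fell in Ribo-seq. Rps6, the S6 kinase substrate, gave 309, 281 and 284 RPKM in control, 178, 126 and 159 RPKM in CPA1 and 384, 431 and 429 RPKM in CPA18 footprints, with no overlap. The Rps6 footprint change was -0.92 at 1 h (edgeR adjusted p = 2.56e-05), and in mRNA-seq it rose by 0.97 at 18 h (adjusted p = 0.00109). At 18 h against control its footprint change was 0.52 (edgeR adjusted p = 0.0134). That call held in 0 of the 4 other scalings, where the change was 0.11 to 0.33. The translation repressor Pdcd4, an S6 kinase target, fell by 1.57 in Ribo-seq at 18 h (adjusted p = 9.91e-05).

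Of the 5 mTORC1 subunits, all tested, 3 rose in mRNA-seq and 2 in Ribo-seq at 18 h against control (backgrounds 25.9% and 24.6%). None was lower (backgrounds 7.69% and 6.35%). With the library total as scale, the same backgrounds apply to the 18 h counts of the other lists in this paragraph. Counts under the other scalings go with the all-gene counts given above for those scalings. Under the other scalings 0 to 2 of the 5 subunits rose in each assay. The 3 subunits higher in mRNA-seq were Akt1s1, Mtor and Mlst8, a core subunit shared with mTORC2 (log2 0.97, edgeR adjusted p = 0.0172), the last called in 1 of 4 other scalings. Of 4 tested genes of the TSC complex and Rheb, only Rheb rose, in both assays, with the limit given above for its footprints. Among 11 tested genes of the GATOR complexes, KICSTOR and nutrient sensors, 3 rose and 1 fell in mRNA-seq and 4 rose and 1 fell in Ribo-seq, where the other scalings left 1 to 2 higher. They included the KICSTOR subunit Itfg2 (1.47 in mRNA-seq, called in 4 of 4 other scalings, and 1.05 in Ribo-seq, called in 0) and the GATOR2 and coat protein Sec13 (1.25 in Ribo-seq, adjusted p = 2.06e-10). One of 6 tested AMPK and LKB1 genes rose in each assay, Prkab1 in mRNA-seq (1.52) and Strada in Ribo-seq (1.43). The Strada call rested on 5 to 6 reads in control and 2 to 9 in CPA18 libraries and was lost under all 4 other scalings, under which 1 gene of this list fell in mRNA-seq. Of 10 tested genes for 4E-BPs, S6 kinases and translation outputs, 3 rose and 1 fell in each assay, and with the other scalings 1 rose in Ribo-seq. Of 5 other tested mTORC1 substrates, 2 rose in each assay: the lysosomal transcription factor Tfe3 (1.30 and 1.56) and the autophagy gene Atg13 (1.05 and 0.92), whose Ribo-seq call held in 1 of the 4 other scalings. The 1 tested mTORC2-specific gene was not called with the library total as scale and was lower in mRNA-seq under 2 of the 4 others. At 1 h the footprints of Eif4ebp3, which encodes a further 4E-BP, rose by 1.81 on the log2 scale (edgeR adjusted p = 0.0169), resting on 2, 2 and 6 reads in control and 8, 7 and 3 in CPA1.

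**Figure D5:**
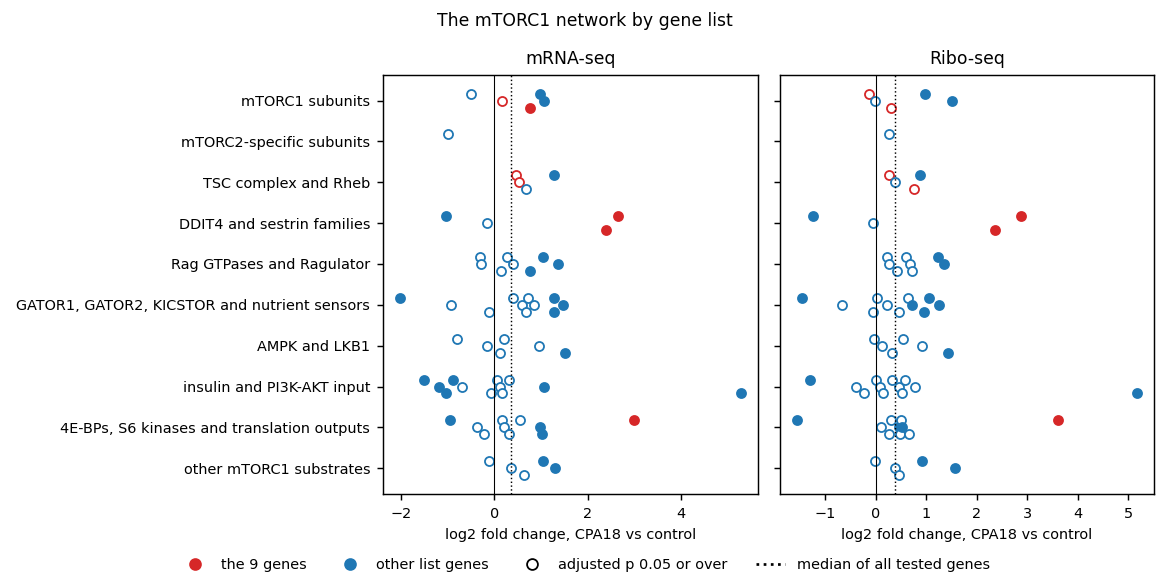
Log2 change at 18 h against control of the tested genes in each list of the mTORC1 network, in mRNA-seq and Ribo-seq, with tested genes of the 9 in red, the other genes in blue, open symbols where the adjusted p was 0.05 or over and a dotted line at the median of all tested genes, 0.36 and 0.39. Ddit4, Sesn2 and Eif4ebp1 lie far above the dotted line, and Trib3 lies above them.

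Across the 18 libraries Ddit4 and Sesn2 had similar profiles (Pearson r = 0.954 of log2(RPKM + 0.5) after removing the mean of each experiment and assay), and Eif4ebp1 had r = 0.914 with Sesn2 and 0.830 with Ddit4, while Rptor had 0.144 to 0.257 with these 3 genes. These values describe 18 libraries that share treatments, experiments and depth. Among 5169 genes with a mean of at least 5 RPKM in mRNA-seq, the profiles most like that of Ddit4 were Herpud1 (r = 0.976), Aen (0.972), Ccdc115 (0.972), Nfkbil1 (0.968) and Ppp1r15a (0.965). Herpud1 takes part in ER-associated degradation and Ppp1r15a encodes GADD34, which removes the phosphate from eIF2α. For Sesn2 they were Psme3 (0.992), Avpi1 (0.990), the amino acid transporter subunit Slc3a2 (0.988), the autophagy receptor Sqstm1 (0.986) and Unc5b (0.985). For Eif4ebp1 they were Etv5 (0.984), Serp1 (0.978), Psmg1 (0.975), the translocon subunit Sec61b (0.974) and Mrps12 (0.974).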

How the data were processed

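The authors filtered the reads to 15 to 40 nt, aligned them with Bowtie2 (version not given in the sources used here) to the mouse RNA reference GRCm38.p6 at 95% identity or more, counted them per transcript and deposited a count, an RPM value (reads scaled to the library total), an RPKM value (RPM per kilobase of transcript) and a length for each transcript. RPKM was recomputed from the deposited counts and lengths and differed by at most 0.00111 on the log2 scale. Counts were summed over the transcripts of a gene, so that reads shared by isoforms stay with the gene, and genes with reads in all 18 libraries were kept. edgeR 4.0.16 in R 4.3.3 (quasi-likelihood test, library size as total count, experiment as block, Benjamini-Hochberg adjustment at 0.05) was fitted to each assay, and for occupancy to both assays with an assay by treatment term, and was tested on simulated data. The labels name the replicate number as a batch, and same-numbered libraries deviated together (mean r 0.567 in mRNA-seq, 0.113 to 0.757, and 0.139 in Ribo-seq, 0.0830 to 0.187). DESeq2 1.42.0, limma 3.58.1 on log2(RPKM + 0.5 or 1), other scalings and filters and left-out libraries were alternatives. Genes named outside the 9 came from at most 3 called genes with the largest change per list and comparison and from the 5 highest correlations with Ddit4, Sesn2 and Eif4ebp1. The members and lists were chosen with earlier results of these data known. The 95% intervals use the SE of the edgeR fit, which includes the estimated spread between libraries beyond counting error. Limits for a count of 0 cover counting error only.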

Additional observations from a re-analysis of the deposited data

Results flagged for a closer look

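The effect of 18 h differed from that of 1 h, by the test of CPA18 against CPA1, for 4 of the 7 tested genes in each assay. Over all tested genes, 31.9% were higher and 5.54% lower in mRNA-seq and 17% and 5.52% in Ribo-seq. The log2 difference for Eif4ebp1 reached 3.31 for mRNA and 3.60 for footprints, and it was called in all 23 alternatives in both assays. That of Sesn2 reached 2.10 for mRNA and 1.85 for footprints, called in all 23 in both. That of Ddit4 was 1.87 in mRNA-seq, lost in 1 of 23 alternatives, and 1.69 in Ribo-seq, called in all 23. Tsc2 had differences of 0.90 in mRNA-seq and 0.95 in Ribo-seq, which were lost in 11 and 17 of 23 alternatives. The control libraries of 18 h serve both times, so the test reduces to CPA18 against CPA1.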

How the results depend on the processing

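Over 32 alternative settings, 1626 values of the 7 members were recomputed. Of these 1572 kept their side of the threshold, 52 called values were no longer called, 2 uncalled values became called, and no called value turned its direction, while 100 uncalled values did. Ddit4, Sesn2 and Eif4ebp1 were called at 18 h against control in all 23 alternatives in both assays. Without the replicate block the number of members called in mRNA-seq at CPA18 against CPA1 was 2 in place of 4, and by limma the number in Ribo-seq at CPA1 was 0 in place of 1 with either pseudocount. Leaving out 1 experiment or library gave 0 to 1 members at CPA1 in both assays, 3 to 4 in mRNA-seq and 3 in Ribo-seq at CPA18 against control, and 3 to 4 at CPA18 against CPA1 in both. The cause was not tested. Without the block, all genes called in mRNA-seq fell from 2617 to 154 at CPA18 against control, from 2922 to 138 against CPA1 and from 56 to 0 at CPA1, and in Ribo-seq from 507 to 231 at CPA1. DESeq2 called 37, 38 and 44 genes in occupancy at CPA1, at CPA18 against CPA1 and at CPA18 against control, in place of 7, 6 and 36, with 0 members among them. Members with few reads (Tsc1, Eif4ebp2, Rps6kb1) and the footprints of Eif4ebp1 before 18 h are limited by depth.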
